A study of Mus musculus with 15 samples.

Results

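The genes described here are 7 transcripts of naive and stem-like T cells: Tcf7, Lef1, Axin2, Satb1, Bach2, Igfbp4 and Dapl1. They were taken by symbol from the deposited tables, and 7 of 7 were found among the 4567 genes that these tables list. RNA was sequenced from splenic T cells stained with Flica, a dye-linked ligand of active caspase-1, and sorted into 5 groups of 3 libraries. CD8 cells with and without Flica signal, and Flica-negative CD4 cells, all given as strain C57Bl6, were collected on day 7 after transfer with bone marrow. The hosts were irradiated allogeneic Balb/C recipients, a mouse model of acute graft-versus-host disease (aGvHD). The control groups were Flica-negative CD4 and CD8 cells of untreated C57Bl6 mice at day 0, which had been neither irradiated nor transplanted. By the study's methods the mice were 6 to 8 weeks old, although legends of other experiments give a younger age for the recipients, and each day 7 sort pooled the splenocytes of several recipients. No CD4 Flica-positive library was made. All 5 groups are given as C57Bl6, while transfer, irradiation of the host and time change together between day 0 and day 7 and cannot be told apart. The study's antibody list holds no donor marker, and another of its experiments shows Flica-positive cells that it calls recipient cells. A part of Balb/C cells in the day 7 libraries was not tested.

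Tcf7 and Lef1 encode TCF-1 and LEF1, transcription factors with an HMG box that bind the same short DNA sites and act with beta-catenin at the end of the Wnt pathway. Naive T cells express both at high levels to stay quiescent and able to renew themselves, effector T cells lose them after activation, and a stem-like minority of activated cells keeps TCF-1. The other genes are also high in resting T cells: a feedback inhibitor of the Wnt pathway (Axin2), a chromatin organizer (Satb1), a repressor of effector genes (Bach2), a secreted protein that binds insulin-like growth factors (Igfbp4), and Dapl1.

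Windows at annotated start sites of 4 of these genes are shown because the genes moved together and 2 of them encode factors that read short DNA sites. Tcf7 encodes such a factor, and Axin2 is a standard target of the Wnt pathway. Bach2 is the gene with a TCF and LEF core in the window used here, and Dapl1 had the largest fall in CD8 Flica-negative cells. The windows run from 250 bases before to 50 bases after a start site given by RefSeq in GRCm38.p6, and lie at chr11:52282965-52283264 (minus strand), chr11:108920099-108920398 (plus strand), chr4:32417185-32417484 (plus strand) and chr2:59484403-59484702 (plus strand). They are written 5′ to 3′ on the strand of the gene, and capitals mark matches on either strand to any of 6 motifs.
Tcf7: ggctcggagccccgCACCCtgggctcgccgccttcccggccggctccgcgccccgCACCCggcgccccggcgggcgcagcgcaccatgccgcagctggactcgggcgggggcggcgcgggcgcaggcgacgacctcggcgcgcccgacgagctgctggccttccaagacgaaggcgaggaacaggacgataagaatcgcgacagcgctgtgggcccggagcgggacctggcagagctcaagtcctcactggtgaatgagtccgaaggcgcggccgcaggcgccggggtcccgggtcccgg
Axin2: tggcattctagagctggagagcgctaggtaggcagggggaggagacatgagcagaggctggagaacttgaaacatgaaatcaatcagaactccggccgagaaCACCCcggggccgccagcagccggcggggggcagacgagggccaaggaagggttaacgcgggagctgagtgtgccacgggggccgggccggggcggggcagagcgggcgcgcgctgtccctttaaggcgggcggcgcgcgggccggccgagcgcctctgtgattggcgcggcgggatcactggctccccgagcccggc
Bach2: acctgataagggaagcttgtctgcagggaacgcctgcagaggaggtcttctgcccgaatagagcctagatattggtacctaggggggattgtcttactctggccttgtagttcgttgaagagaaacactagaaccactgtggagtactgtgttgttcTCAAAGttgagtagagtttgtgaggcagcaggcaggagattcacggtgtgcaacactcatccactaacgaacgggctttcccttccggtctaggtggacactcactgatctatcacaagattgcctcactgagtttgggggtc
Dapl1: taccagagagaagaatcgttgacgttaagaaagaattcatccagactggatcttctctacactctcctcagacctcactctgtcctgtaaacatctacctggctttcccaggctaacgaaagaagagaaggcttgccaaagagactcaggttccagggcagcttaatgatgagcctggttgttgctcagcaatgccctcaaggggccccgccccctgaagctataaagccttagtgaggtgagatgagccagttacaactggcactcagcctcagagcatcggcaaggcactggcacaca
The TCF and LEF core CTTTGA was found in 1 of the 7 windows, that of Bach2, where it begins 93 bases before the start site on the opposite strand, and in 16.0% of all 32851 mouse windows. Its variant CTTTGT was in 0 of the 7 and in 18.7% of all windows. The KLF motif CACCC was in 5 of the 7, not in those of Bach2 and Dapl1, and in 57.5% of all windows. The RUNX motif TGTGGT, the ETS motif CAGGAA and the AP-1 motif TGANTCA were in 0 of the 7 and in 16.8%, 30.6% and 7.81% of all windows. Where RefSeq gave several start sites, the window nearest the 5′ end of the annotated gene was used, and for Bach2 the only start site lies 178631 bases inside it. In the Tcf7 window an atg upstream of the start site opens a reading frame without a stop codon to the window's end. That window may therefore hold coding sequence. A match describes these letters only.

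The values are raw counts, given here as normalized counts after division by the authors' size factors. A gene entered the deposited tables when its adjusted p was under 0.05 and its log2 fold change exceeded 2 in size in at least 1 comparison, so a listed gene had to differ somewhere and the p-values below are no independent evidence of change. Tcf7, Bach2, Igfbp4 and Dapl1 were in the tables of all 3 comparisons with control, Lef1 in both CD8 tables, and Axin2 and Satb1 only in that of CD8 Flica-positive cells. Counts on listed genes came to 2143579 to 11046043 per library. Of 15 general T cell markers 0 were listed, so the labels were checked on Cd8a, with 9348 to 21642 normalized counts in CD8 and 4.41 to 117 in CD4 libraries, and on Zbtb7b, a factor of the CD4 lineage, with 3378 to 6056 in CD4 libraries, 48.1 to 127 in CD8 control and 1422 to 1919 in CD8 libraries of day 7. Summed neutrophil markers (10 of 10 listed) came to 17.0 to 111 in control libraries, with Ly6g at 0 in all 6, 2221 to 6705 in CD4 Flica-negative, 9877 to 15423 in CD8 Flica-negative and 173115 to 335015 in CD8 Flica-positive libraries. Summed macrophage markers (8 of 10 listed) came to 109 to 228, 242 to 743, 919 to 2031 and 17399 to 37037 in the same order, and erythroid markers (5 of 10 listed) to 1874 to 9136, 362 to 1933, 272 to 3555 and 1393 to 110389. Summed B cell markers (9 of 10 listed) went the other way, with 7705 to 11016 in control, 418 to 711 in CD4 Flica-negative, 396 to 453 in CD8 Flica-negative and 687 to 997 in CD8 Flica-positive libraries, with Ms4a1 at 0 in the CD4 libraries of day 7. Of 10 stromal and endothelial markers 0 were listed. The part of these cells in the results below was not tested.

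In CD8 cells all 7 genes were lower in Flica-negative cells of day 7 than in control cells by the edgeR quasi-likelihood test with adjustment after Benjamini and Hochberg, where 29.1% of listed genes were called lower. In CD4 cells 6 of the 7 were lower, where 26.8% of listed genes were called lower, and Axin2 did not pass. All 7 were lower in CD8 Flica-positive cells than in control, where 23.9% of listed genes were called lower, and this comparison shares its 3 control libraries with the first. The median log2 fold change of the 7 genes was -4.23 in CD8 Flica-negative, -2.26 in CD4 Flica-negative and -3.57 in CD8 Flica-positive cells, against 0.69, 0.14 and 2.04 over all listed genes. In bulk samples, fewer cells that express a gene and less RNA of it per cell cannot be told apart. Scaling by TMM in place of the authors' size factors moved the log2 fold changes of all listed genes by -0.38, -0.23 and -1.61 in the median, and the members stayed lower. This scaling could use the listed genes alone, each of which had to differ somewhere. In the Flica-positive comparison it turned the split of all calls from 2138 higher and 1093 lower to 1232 higher and 1610 lower.

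**Figure D1:**
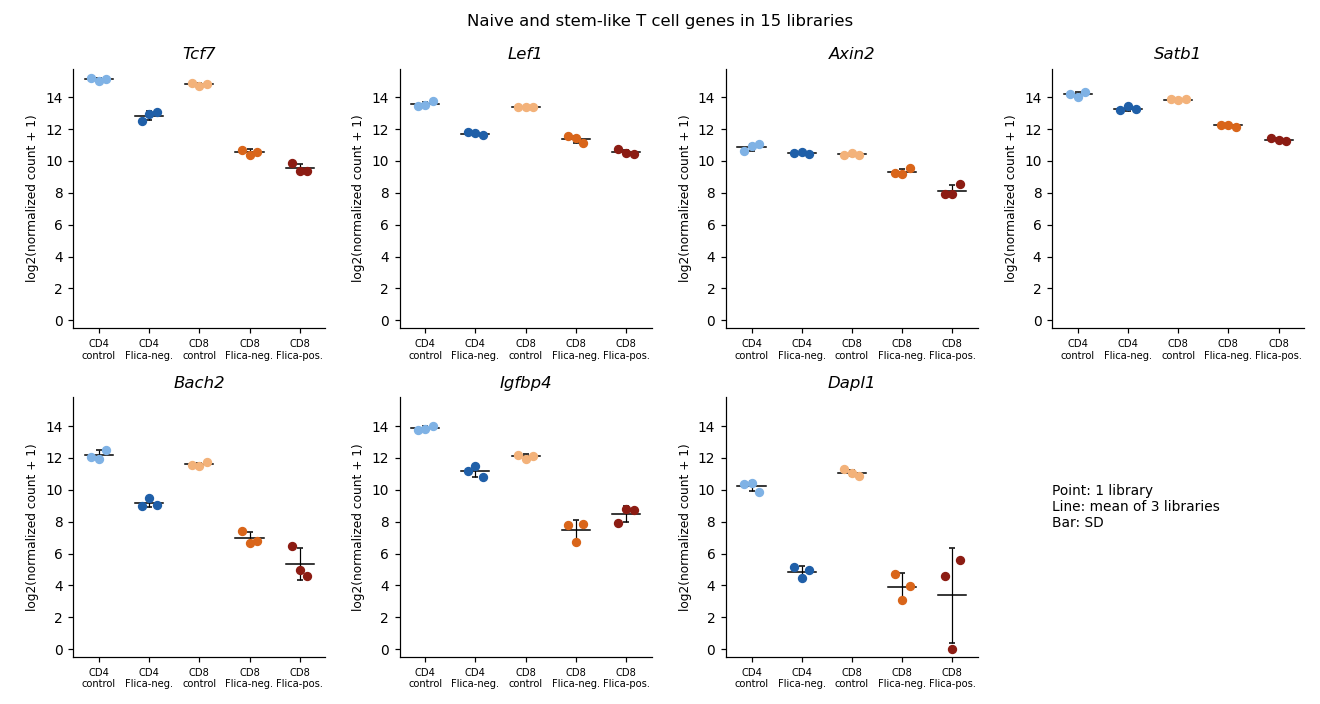
Levels of the 7 genes as log2(normalized count + 1) on the vertical axis of each panel, in the 5 groups on the horizontal axis. Points are libraries, lines are means of the log2 values and bars are SD (n = 3), and for each gene every control library lies above the day 7 libraries of the same lineage.

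Tcf7 (ENSMUSG00000000782, chr11:52252371-52283014, minus strand, GRCm38) separated all 5 groups. It had 37629, 33086 and 36887 normalized counts in the CD4 control libraries and 30058, 27184 and 28598 in the CD8 control libraries. On day 7 it had 5926, 8016 and 8511 in CD4 Flica-negative, 1678, 1354 and 1537 in CD8 Flica-negative and 917, 675 and 673 in CD8 Flica-positive libraries. No library overlapped with the next group in this order, and CD4 cells kept several times the level of CD8 cells. The log2 fold change against control was -4.23 ± 0.13 in CD8 Flica-negative cells (SE, n = 3 against 3, adjusted p = 3.74e-09 by the edgeR quasi-likelihood test with adjustment after Benjamini and Hochberg), which left 5.32% of the control mean. It was -2.26 ± 0.16 in CD4 Flica-negative cells, which left 20.9% (adjusted p = 1.61e-07 by the same edgeR test), and -5.24 ± 0.22 in Flica-positive cells, which left 2.64% (adjusted p = 2.17e-06 by the same edgeR test).

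Lef1 (ENSMUSG00000027985, chr3:131110471-131224356, plus strand), the close relative of TCF-1, fell less than Tcf7 in CD8 cells. Control libraries had 11318, 11874 and 13622 normalized counts in CD4 and 10858, 10943 and 10782 in CD8 cells. Day 7 libraries had 3669, 3382 and 3112 in CD4 Flica-negative, 3014, 2731 and 2252 in CD8 Flica-negative and 1692, 1477 and 1392 in CD8 Flica-positive cells. The groups followed the order of Tcf7 without overlap, but the CD4 and CD8 Flica-negative libraries lay close together, with means of 3388 ± 279 and 2666 ± 385 (SD, n = 3). Lef1 changed by -2.03 ± 0.14 on the log2 scale in CD8 Flica-negative, -1.86 ± 0.15 in CD4 Flica-negative and -2.84 ± 0.19 in CD8 Flica-positive cells against control (SE, adjusted p = 9.30e-07, 4.46e-07 and 7.12e-06 by the edgeR test).

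The ratio of Tcf7 to Lef1 counts within a library does not depend on its size factor. It was 3.32, 2.79 and 2.71 in CD4 control, 2.77, 2.48 and 2.65 in CD8 control and 1.62, 2.37 and 2.73 in CD4 Flica-negative libraries, which overlap with the CD4 control libraries. In CD8 Flica-negative libraries it was 0.557, 0.496 and 0.683, and in CD8 Flica-positive libraries 0.542, 0.457 and 0.484. Lef1 thus had more counts than Tcf7 in these 6 libraries and fewer in the other 9. The ratio of Tcf7 to Satb1 was 1.78 to 1.98 in CD4 control against 0.634 to 0.879 in CD4 Flica-negative libraries, and 1.89 to 1.99 in CD8 control against 0.271 to 0.339 in CD8 Flica-negative libraries, lower on day 7 in both lineages without overlap. The ratios were not tested.

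**Figure D2:**
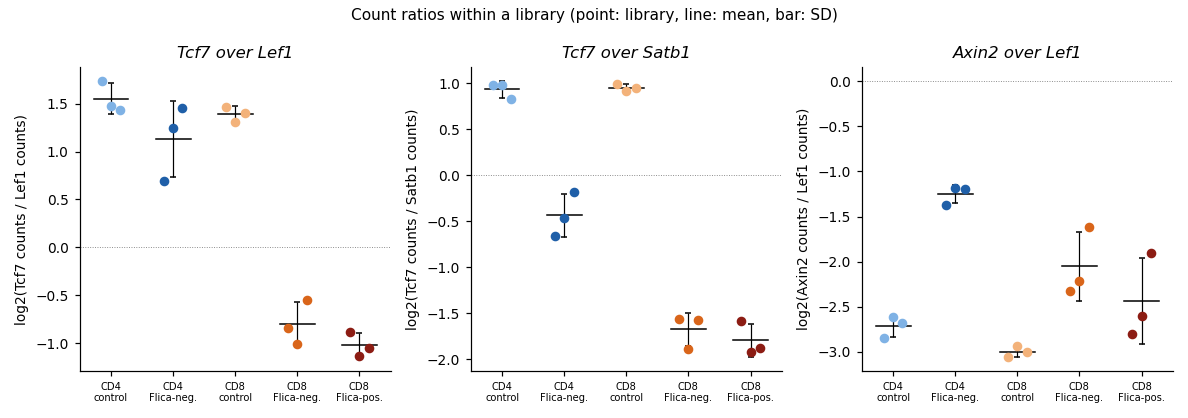
Log2 ratio of the counts of 2 genes within a library (vertical axis of each panel) in the 5 groups, for Tcf7 over Lef1, Tcf7 over Satb1 and Axin2 over Lef1. Points are libraries, lines are means and bars are SD (n = 3). Tcf7 over Lef1 is below 0 only in the 6 CD8 libraries of day 7, and Axin2 over Lef1 is highest in the CD4 Flica-negative libraries.

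Axin2 (ENSMUSG00000000142, chr11:108920349-108950783, plus strand), part of the complex that degrades beta-catenin, had the smallest changes of the 7 against control. It had 1574, 1947 and 2134 normalized counts in CD4 control and 1422, 1488 and 1357 in CD4 Flica-negative libraries. These groups do not overlap but lie close together, and the log2 fold change of -0.41 ± 0.18 did not pass (SE, 95% interval -0.79 to -0.02, adjusted p = 0.0662 by the edgeR quasi-likelihood test with adjustment after Benjamini and Hochberg). It passed with DESeq2 (adjusted p = 0.0486), with TMM scaling in edgeR (0.0222) and in edgeR without CD4 control replicate 1 (0.0405). CD8 libraries had 1304, 1431 and 1346 in control, 602, 589.7 and 737 in Flica-negative and 243, 244 and 373 in Flica-positive cells, without overlap. The log2 fold change against control was -1.08 ± 0.20 in CD8 Flica-negative and -2.25 ± 0.27 in CD8 Flica-positive cells (SE, adjusted p = 8.04e-04 and 1.17e-04 by the edgeR test). Axin2 over Lef1 was 0.388, 0.440 and 0.436 in CD4 Flica-negative libraries, above every library of the other groups, which ranged up to 0.327.

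Satb1 (ENSMUSG00000023927, chr17:51736187-51833290, minus strand), which folds chromatin into loops and is needed for T cell development, kept a larger share of its control level than Tcf7. It had 19029.8, 16736 and 20749 normalized counts in CD4 control and 15125, 14419 and 14878 in CD8 control libraries. Day 7 libraries had 9342, 11075 and 9678 in CD4 Flica-negative, 4951, 4998 and 4583 in CD8 Flica-negative and 2750.4, 2557 and 2469 in CD8 Flica-positive cells. The 5 groups do not overlap with their neighbours in this order. Satb1 fell by 0.91 on the log2 scale in CD4 Flica-negative cells, which left 53.3% of the control mean, by 1.61 in CD8 Flica-negative cells (32.7%) and by 2.51 in CD8 Flica-positive cells (17.5%), with SE of 0.14, 0.11 and 0.17.

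Bach2 (ENSMUSG00000040270, chr4:32238804-32586108, plus strand) represses effector genes in T cells and plasma cell genes in B cells. It had 4349, 3877 and 5849 normalized counts in CD4 control and 3029.8, 2926 and 3398 in CD8 control libraries. Day 7 libraries had 515, 719 and 528 in CD4 Flica-negative, 173, 101 and 109.6 in CD8 Flica-negative and 87.9, 30.6 and 22.7 in CD8 Flica-positive cells. The order was that of Tcf7, without overlap, and the lowest Flica-positive libraries rest on 19 and 26 raw counts. Bach2 changed by -3.00 ± 0.22 on the log2 scale in CD4 Flica-negative, -4.61 ± 0.26 in CD8 Flica-negative and -6.04 ± 0.52 in CD8 Flica-positive cells against control (SE, adjusted p = 1.77e-07, 2.12e-07 and 2.17e-05 by the edgeR test). Summed B cell markers fell with Bach2 in both lineages, with 7705 to 11016 normalized counts in control and 396 to 711 in Flica-negative libraries, and were 687 to 997 in Flica-positive libraries, where Bach2 was lowest. Their part in the change of Bach2 was not tested. Without CD8 Flica-positive replicate 1, the highest of its group, the log2 fold change of Bach2 in Flica-positive cells was -6.86.

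Igfbp4 (ENSMUSG00000017493, chr11:99041244-99054392, plus strand) had the largest difference in level between the lineages. It had 14046, 14670.4 and 16367 normalized counts in CD4 control and 4727, 3944 and 4552 in CD8 control libraries. Day 7 libraries had 2304, 2944 and 1800.3 in CD4 Flica-negative, 225, 105 and 226 in CD8 Flica-negative and 243, 451 and 421 in CD8 Flica-positive cells. All Flica-positive libraries lay above all CD8 Flica-negative ones, an order that no other gene of the 7 had. Igfbp4 changed by -2.68 ± 0.19 on the log2 scale in CD4 Flica-negative, -4.57 ± 0.30 in CD8 Flica-negative and -3.57 ± 0.29 in CD8 Flica-positive cells against control (SE, adjusted p = 1.56e-07, 6.52e-07 and 1.66e-05 by the edgeR test).

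Of 12 other genes for insulin-like growth factors, their receptors and binding proteins, 4 were listed. In CD8 Flica-negative cells Igfbp7, another binding protein, rose from 9.43 ± 11.3 to 142 ± 29.1 normalized counts (SD, n = 3), and Igf1r, the type 1 receptor, fell from 568 ± 55.7 to 55.5 ± 10.3. The log2 fold change of Igfbp7 was 3.88 ± 0.89 (SE), and 5.42 without CD8 control replicate 1. The other 2 did not pass, and the median log2 fold change of the 4 was -0.95. In CD4 Flica-negative cells Igf1r fell from 1003 ± 277 to 141 ± 73.4 and Igfbp7 rose from 18.9 ± 5.32 to 320.3 ± 35.6. Igf1, the growth factor, also rose there, from 0 in every control library to a mean of 6.13, but this call was lost in 9 of 10 alternatives, the omission of any single library among them (adjusted p = 0.0553 to 0.216 by edgeR or DESeq2). The median in CD4 cells was 1.44, and -0.07 with Igf1 at its bound against 3 counts per library. Between Flica-positive and Flica-negative cells 2 of the 4 were higher, where 21.1% of all listed genes were, and Igf1r went from 55.5 ± 10.3 to 706 ± 258, the direction of Igfbp4.

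Dapl1 (ENSMUSG00000026989, chr2:59484653-59505020, plus strand) was nearly lost on day 7. It had 1338, 1377 and 939 normalized counts in CD4 control and 2501, 2099 and 1855 in CD8 control libraries. Day 7 libraries had 34.4, 21.2 and 30.4 in CD4 Flica-negative, 25.6, 7.46 and 14.7 in CD8 Flica-negative and 23.4, 0 and 46.6 in CD8 Flica-positive cells, from 0 to 39 raw counts, and the library at 0 allows up to 3 counts. All 9 day 7 libraries lay below all control libraries, and the 3 day 7 groups overlap. Dapl1 changed by -7.09 ± 0.40 on the log2 scale in CD8 Flica-negative, -5.39 ± 0.29 in CD4 Flica-negative and -6.52 ± 0.90 in CD8 Flica-positive cells against control (SE, adjusted p = 2.12e-07, 1.83e-08 and 2.88e-04 by the edgeR test). The value in Flica-positive cells was -7.50 without CD8 Flica-positive replicate 3. As a level per kilobase of exon, Dapl1 was second of the 7 in CD8 control cells with a mean of 3169 normalized counts per kilobase, after Tcf7 with 10900.3 and before Lef1 with 1236, Igfbp4 with 998, Satb1 with 778, Bach2 with 314 and Axin2 with 247. In CD4 control cells Igfbp4 was second with 3403, after Tcf7 with 13664. The length used merges all annotated exons of a gene, whichever transcript was expressed. It ranged from 679 bases for Dapl1 to 19027 for Satb1, and the order of the genes rests on it.

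**Figure D3:**
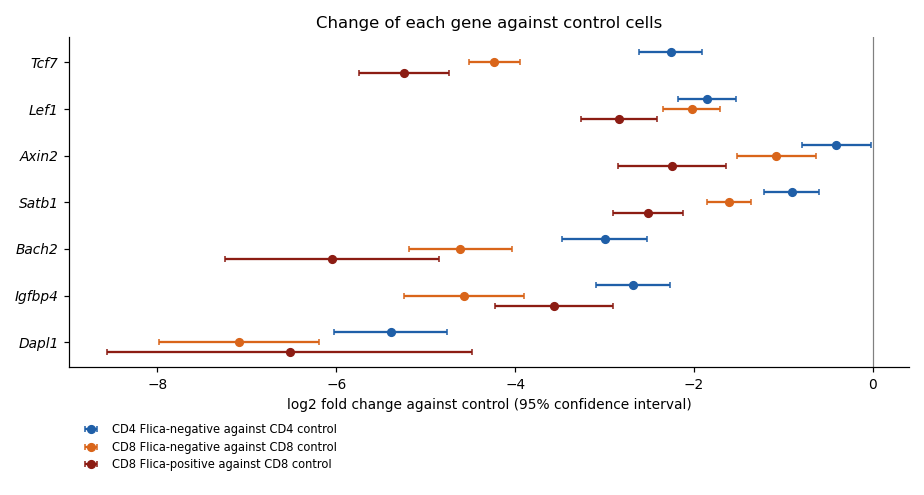
Log2 fold change of the 7 genes (horizontal axis) in CD4 Flica-negative, CD8 Flica-negative and CD8 Flica-positive cells against control cells of the same lineage, as edgeR estimates with 95% confidence intervals (n = 3 against 3). All points lie below 0, from -0.41 for Axin2 in CD4 cells to -7.09 for Dapl1 in CD8 Flica-negative cells.

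Whether the change differed between CD4 and CD8 Flica-negative cells was tested by the interaction term in edgeR. For 5 of the 7 genes the fall was smaller in CD4 than in CD8 cells, where 5.65% of listed genes were called in that direction. The difference of the log2 fold changes was 1.97 ± 0.20 for Tcf7 (SE, adjusted p = 2.85e-06), 1.90 ± 0.33 for Igfbp4 (9.11e-04) and 1.61 ± 0.31 for Bach2 (0.00243) by edgeR. These 3 calls passed in each of the 17 alternatives tried. It was 1.70 ± 0.45 for Dapl1 (SE, adjusted p = 0.0210) and 0.70 ± 0.17 for Satb1 (0.0131) by edgeR, and TMM scaling lost both calls (0.0941 and 0.137). Dapl1 was also lost without CD4 Flica-negative replicate 1 (adjusted p = 0.0581 by edgeR), without CD8 Flica-negative replicate 2 (0.0577) and with all 15 libraries in 1 fit (0.230). Lef1 gave 0.17 ± 0.20 (95% interval -0.25 to 0.59, adjusted p = 0.652 by edgeR) and Axin2 0.67 ± 0.26 (0.13 to 1.22, 0.108), and neither passed, though Axin2 did with DESeq2 (adjusted p = 0.0455).

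In control cells, Igfbp4 and Bach2 were higher in CD4 than in CD8 cells, where 7.01% of listed genes were called higher, and Dapl1 was lower, where 5.81% were called lower. Igfbp4 differed by 1.77 ± 0.14 on the log2 scale or 3.41-fold (SE, adjusted p = 3.40e-12 by the edgeR test), with all CD4 libraries above all CD8 libraries. Bach2 differed by 0.59 ± 0.16 and Dapl1 by -0.82 ± 0.18 (SE, adjusted p = 0.00856 and 7.41e-04 by the edgeR test). Both calls were lost with all 15 libraries in 1 fit (adjusted p = 0.373 and 0.456 by edgeR), and Bach2 also without CD8 control replicate 1 (0.0518) or 2 (0.0503). The difference did not pass for Tcf7 (95% interval 0.06 to 0.59), Lef1 (-0.10 to 0.46), Axin2 (0.13 to 0.81) and Satb1 (0.07 to 0.62). Tcf7 passed without CD4 control replicate 3 (adjusted p = 0.0283 by edgeR), Axin2 without CD4 control replicate 1 (0.0286) and with DESeq2 (0.0336). The study describes sorting the stained splenocytes of control or aGvHD mice into the groups, so same-numbered libraries may share a pool, though no source states what the number marks. With the replicate number as a block Tcf7, Axin2 and Satb1 also passed (adjusted p = 0.00610, 0.00486 and 0.00562 by edgeR). For these 3 genes all CD4 libraries lay above all CD8 libraries, whatever their number, so this order says nothing about pairing.

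Among Flica-negative cells of day 7, 5 of the 7 genes were higher in CD4 than in CD8 cells, where 9.99% of listed genes were called higher. The difference was 3.67 ± 0.28 on the log2 scale for Igfbp4, or 12.7-fold, 2.30 ± 0.17 for Tcf7, or 4.91-fold, and 2.20 ± 0.29 for Bach2, or 4.60-fold. Axin2 differed by 1.14 ± 0.19 and Satb1 by 1.05 ± 0.13. The largest adjusted p of these 5 was 2.12e-04 by the edgeR quasi-likelihood test with adjustment after Benjamini and Hochberg. Lef1 differed by 0.35 ± 0.16 (95% interval 0.02 to 0.68) and Dapl1 by 0.85 ± 0.73 (-0.67 to 2.37), and neither passed (adjusted p = 0.128 and 0.434 by the edgeR test). Summed neutrophil markers also differed between these groups, 2221 to 6705 in CD4 against 9877 to 15423 in CD8 libraries, and their part was not tested. With the replicate block Lef1 passed (adjusted p = 0.00245 by edgeR).

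Among CD8 cells of day 7, Tcf7, Lef1, Axin2 and Satb1 had less RNA in Flica-positive than Flica-negative cells, 4 of the 7 genes, where 2.72% of listed genes were called lower. Tcf7 differed by -1.01 ± 0.23 on the log2 scale (SE, adjusted p = 0.00535 by the edgeR quasi-likelihood test with adjustment after Benjamini and Hochberg), Axin2 by -1.17 ± 0.28 (0.00885), Satb1 by -0.90 ± 0.19 (0.00347) and Lef1 by -0.81 ± 0.21 (0.0137). All Flica-positive libraries lay below all Flica-negative libraries for these 4. By the study's flow cytometry, most Flica-positive T cells of aGvHD mice took up a dye that enters cells with damaged membranes. Flica-negative cells took up little or none. The part of dying cells in the differences between Flica-positive and Flica-negative cells was not tested. Over all listed genes the calls were 946 higher and 122 lower, and 738 higher and 458 lower with TMM scaling, which moved the median by -0.56. Lef1 lost its call without CD8 Flica-negative replicate 2 (adjusted p = 0.0674 by edgeR) and without CD8 Flica-positive replicate 2 (0.0598).

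The other 3 genes did not pass in this comparison. Bach2 gave -1.44 ± 0.62 (SE, 95% interval -2.78 to -0.09, adjusted p = 0.114 by edgeR), with all Flica-positive libraries below, and Igfbp4 gave 1.00 ± 0.39 (0.16 to 1.85, 0.0815), with all above. Dapl1 gave 0.55 ± 1.35 (-2.39 to 3.49, adjusted p = 0.792 by edgeR) on overlapping libraries, and turned negative with TMM scaling and without CD8 Flica-positive replicate 3. Bach2 and Igfbp4 both passed without CD8 Flica-positive replicate 1 (adjusted p = 0.0252 and 0.0478 by edgeR) and with all 15 libraries in 1 fit (0.00865 and 0.0133), and Bach2 also with TMM scaling (0.0310). With the replicate block Igfbp4 passed (adjusted p = 0.0486 by edgeR) and Dapl1 turned negative.

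**Figure D4:**
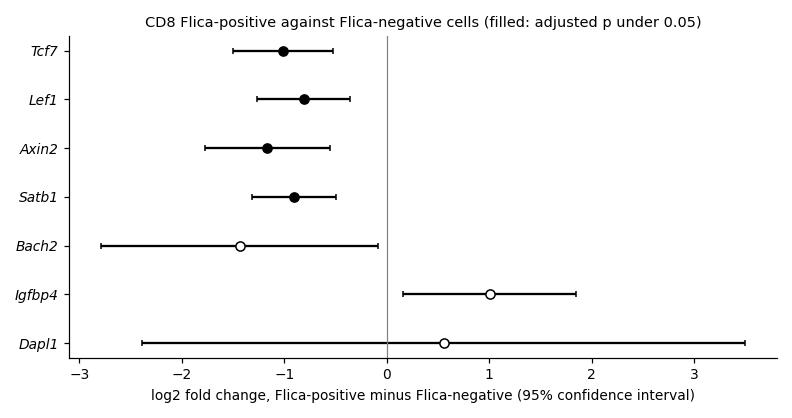
Log2 fold change of CD8 Flica-positive against CD8 Flica-negative cells (horizontal axis) for the 7 genes, as edgeR estimates with 95% confidence intervals (n = 3 against 3). Filled points passed an adjusted p of 0.05: Axin2, Tcf7, Satb1 and Lef1, from -1.17 to -0.81. Igfbp4 and Dapl1 lie above 0.

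Mitochondrially encoded genes took 42.8% to 51.7% of the counts on listed genes in Flica-positive libraries against 15.3% to 16.2% in CD8 Flica-negative libraries, beside the neutrophil and macrophage markers given above. The counts were therefore also set against those of Cd8a, a part of the CD8 co-receptor, in the same library, a choice made after the values were seen. Flica-negative libraries had 13875 ± 1075 and Flica-positive libraries 10759 ± 1222 normalized counts of Cd8a (SD, n = 3), a log2 fold change of -0.37 ± 0.18 that did not pass (SE, adjusted p = 0.169 by edgeR, 0.0107 with TMM scaling). Per 1000 Cd8a counts, Tcf7 had 121, 90.5 and 119.9 in Flica-negative libraries and 80.2, 58.7 and 72.0 in Flica-positive ones. On this scale Tcf7, Lef1 and Satb1 were still lower in every Flica-positive library, with a log2 ratio of the means of -0.65, -0.44 and -0.53, while Axin2 (-0.77) and Bach2 (-1.12) overlapped. Igfbp4 had 16.2, 6.98 and 17.6 per 1000 Cd8a counts in Flica-negative libraries and 21.2, 39.2 and 45.0 in Flica-positive ones, again without overlap. No test was run on this scale.

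A list of 38 other genes of naive and stem-like T cells had 24 listed members. The rest met the limits of no deposited table under these symbols and could not be compared. The counts below are therefore of genes that had to differ somewhere, and the same holds for the other gene lists. In CD8 Flica-negative cells 23 of the 24 fell against control, where 29.1% of all listed genes were called lower. The median log2 fold change of the 24 was -3.71, against 0.69 over all listed genes. Tdrp fell most, from 2954 ± 350.4 to 24.9 ± 21.4 normalized counts (SD, n = 3), a log2 fold change of -6.88 ± 0.51 (SE) that was -7.87 without CD8 Flica-negative replicate 2. Ccr7, a chemokine receptor that guides T cells to lymph nodes, went from 7996 ± 537 to 209.8 ± 61.8. Ly6c1 did not pass, at 453 ± 140.0 in control and 720.3 ± 136 in Flica-negative libraries, and passed as higher without CD8 control replicate 2 (adjusted p = 0.0332 by edgeR) or CD8 Flica-negative replicate 1 (0.0396).

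In CD4 Flica-negative cells 21 of the 24 fell, where 26.8% of all listed genes were called lower, with a median of -2.44, against 0.14 over all listed genes. The 3 that did not pass were Il7r, the receptor of the survival cytokine IL-7, with 9845 ± 543 normalized counts in control and 11293 ± 632 in Flica-negative libraries (SD, n = 3), Ccr9, a receptor for homing to the gut, with 161 ± 73.7 and 142 ± 14.3, and Cxcr5, a receptor for entry into B cell follicles, with 609 ± 27.3 and 455 ± 184. By the interaction term 16 of the 24 fell less in CD4 than in CD8 cells, where 5.65% of all listed genes were called in that direction, and Ly6c1 went the other way, with a median difference of 1.64, against -0.12 over all listed genes. The difference was largest for Ccr9 (4.96 ± 0.40, SE), which went from 2550.4 ± 75.4 to 72.2 ± 6.47 normalized counts in CD8 cells. Il7r, which fell in CD8 cells from 11195 ± 1342 to 4378 ± 994, differed by 1.55 ± 0.22, and Ccr7 by 2.42 ± 0.26.

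**Figure D5:**
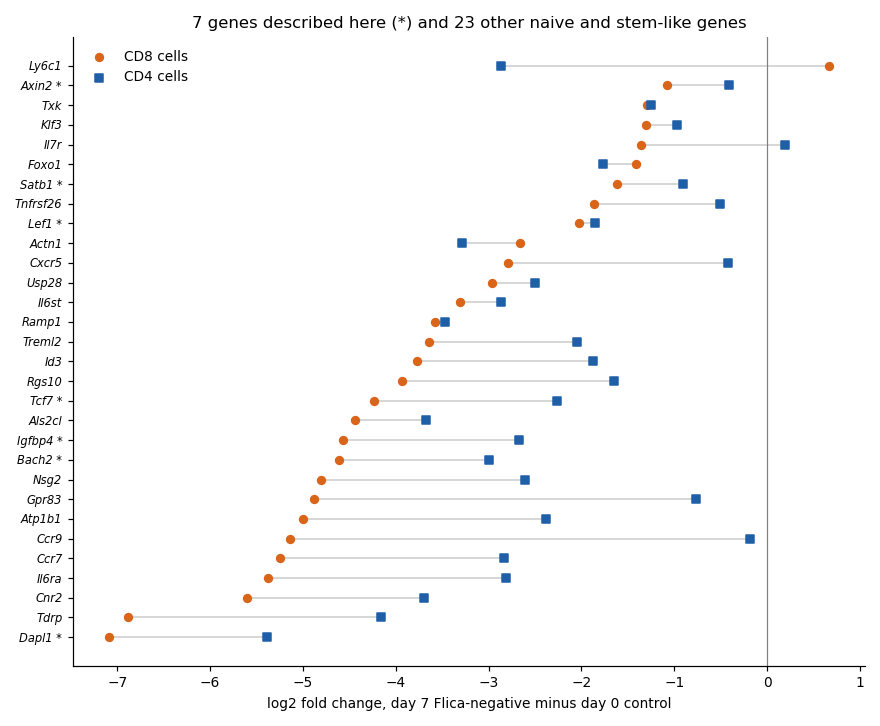
Log2 fold change of day 7 Flica-negative against day 0 control cells (horizontal axis) in CD8 cells (circles) and CD4 cells (squares) for the 7 genes, marked with an asterisk, and 23 of the 24 other naive and stem-like genes, ordered by the CD8 value. A line joins the lineages of a gene. Most squares lie to the right of their circles, and Ly6c1 is an exception, with 0.67 in CD8 and -2.86 in CD4 cells.

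When Flica-positive were compared with Flica-negative CD8 cells, the 24 genes did not move as a block: 5 were higher, where 21.1% of all listed genes were called higher, 3 were lower, where 2.72% were called lower, and 16 did not pass, with a median of -0.16, against 0.41 over all listed genes. The share called higher was near that of all listed genes. Those higher in Flica-positive cells included Cnr2, with 277 ± 109 against 29.1 ± 5.44 normalized counts (SD, n = 3), Il6ra, with 1046 ± 513 against 138 ± 39.7, Treml2, with 1237 ± 429 against 237 ± 11.0, and Ramp1, with 208 ± 75.2 against 48.6 ± 12.6. Neutrophils are known to express Il6ra too, and summed neutrophil markers were 173115 to 335015 against 9877 to 15423, whose part in these differences was not tested. Lower were Il7r, with 1917 ± 236 against 4378 ± 994, Txk, a T cell kinase, with 679 ± 119 against 1322 ± 149, and Foxo1, a factor that drives Il7r, with 1910.3 ± 387 against 3026 ± 426. Txk lost its call without CD8 Flica-negative replicate 2 (adjusted p = 0.0567 by edgeR), and Foxo1 kept its call in 6 of 11 alternatives, losing it when CD8 Flica-negative replicate 1, 2 or 3 or CD8 Flica-positive replicate 1 or 2 was left out (adjusted p = 0.0511 to 0.165 by edgeR). Against control, 23 of the 24 were lower in Flica-positive cells, where 23.9% of all listed genes were called lower. Ly6c1 was higher, 1247 ± 419.6 against 453 ± 140.0, a call that TMM scaling turned to -0.23 on the log2 scale.

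Of 63 other genes of the Wnt pathway, 9 were listed. In CD8 Flica-negative cells 2 rose, 6 fell and 1 did not pass, where 37.6% of all listed genes were called higher and 29.1% lower, with a median log2 fold change of -2.32, which was the same with genes at 0 set to their bound against 3 counts per library. In CD4 Flica-negative cells Nkd1 and Dkk3 rose, Znrf3 and Lrp6 fell, and 5 did not pass, where 31.6% of all listed genes were called higher and 26.8% lower. The median of the 9 was -0.50 there, against 0.14 over all listed genes. Sfrp2, a secreted Wnt modulator, had the largest fitted fall in CD8 cells, from 14.4 ± 8.70 normalized counts to 0 in every Flica-negative library, at least 5.05-fold lower against 3 counts per library. Znrf3, a ubiquitin ligase that removes Wnt receptors from the cell surface, went from 1297 ± 188 to 260.0 ± 40.0 normalized counts in CD8 and from 1384 ± 379 to 309.6 ± 30.7 in CD4 cells (SD, n = 3). Lrp6, a Wnt co-receptor, went from 2164 ± 132 to 646 ± 50.4 in CD8 and from 2451 ± 431 to 1077 ± 69.7 in CD4 cells. Nkd1, like Axin2 a feedback inhibitor of the pathway, had 0 counts in all 6 control libraries and 37.4 ± 11.3, 40.0 ± 14.6 and 44.2 ± 15.9 normalized counts in CD8 Flica-negative, CD4 Flica-negative and CD8 Flica-positive libraries. Against 3 counts per library this is at least 13.6-fold, 13.4-fold and 16.2-fold higher, the opposite direction to Axin2.

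In CD8 Flica-positive cells against control, Nkd1, Dkk3 and Wnt10b of the 9 Wnt genes were higher, Znrf3, Lrp6, Tle2 and Wnt5b were lower and 2 did not pass, where 46.8% of all listed genes were called higher and 23.9% lower. The median of the 9 was -0.78, against 2.04 over all listed genes. The Dkk3 and Tle2 calls were each lost when CD8 control replicate 1, 2 or 3 or CD8 Flica-positive replicate 1 or 2 was left out (adjusted p = 0.0658 to 0.117 for Dkk3 and 0.0679 to 0.164 for Tle2 over all alternatives that lost them, by edgeR), and the Wnt10b call with TMM scaling (0.0692). Between Flica-positive and Flica-negative cells, where Axin2 was lower, 0 of the 9 passed by edgeR, against 4 at an unadjusted p below 0.05 and 2 with DESeq2.

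Effector genes rose where the 7 genes fell. Of 14 effector genes 13 were listed, and 13 rose in CD8 Flica-negative, 12 in CD4 Flica-negative and 13 in CD8 Flica-positive cells against control, where 37.6%, 31.6% and 46.8% of all listed genes were called higher. The median log2 fold changes were 4.98, 3.01 and 4.46, against 0.69, 0.14 and 2.04 over all listed genes. Gzmb, which encodes the cytotoxic protease granzyme B, rose most, from 47.5 ± 6.20 to 40953 ± 5798 normalized counts in CD8 and from 27.5 ± 12.4 to 8352 ± 208 in CD4 Flica-negative cells (SD, n = 3). Zeb2, a repressor found in terminal effector cells, did not pass in CD4 cells, at 76.7 ± 38.3 in control and 154 ± 25.6 in Flica-negative libraries, but passed without CD4 control replicate 1 (adjusted p = 0.0330 by edgeR) and with all 15 libraries in 1 fit (0.0405). Between Flica-positive and Flica-negative cells Fasl and Ifng of the 13 fell, by 0.81 and 0.61 on the log2 scale, and the other 11 did not pass. In this comparison 2.72% of all listed genes were called lower and 21.1% higher. The Fasl call was lost without CD8 Flica-negative replicate 1 or 2, without CD8 Flica-positive replicate 2 or 3 and with all 15 libraries in 1 fit (adjusted p = 0.0681 to 0.0981 by edgeR), and the Ifng call without any single library and with all 15 (0.0557 to 0.131).

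Across the 15 libraries the 7 genes varied together, on the scale of log2(normalized count + 1). Pearson's r ranged from 0.71 for Axin2 with Dapl1 to 0.99 for Tcf7 with Bach2. These values describe libraries that fall into 5 groups and share their size factors within a library. Among the 2180 listed genes whose mean reached 50 normalized counts, the genes most like Tcf7 were Ccr7 (r = 0.993), Bach2 (0.991) and Nsg2 (0.990). Those most like Lef1 were Pkd1, Thada and Kmt2c, those most like Satb1 were Sesn3, Inpp4b and Tcf7, and those most like Bach2 were Sesn3, Tcf7 and Rapgef4. Axin2 was most like Tespa1, Il7r and Satb1, Igfbp4 most like Ldhd, Il4ra and Selenop, and Dapl1 most like Map7, Gm15675 and Bbs2. The lowest of these 21 values was 0.955, for Axin2 with Satb1.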

How the data were processed

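Libraries were made by oligo-dT capture and sequenced as paired ends, and the submitters' processing notes name STAR 2.7.1a, GRCm38 and DESeq2. The counting tool and annotation are not given in the sources used here. The authors deposited 4 gene tables with raw counts of all 15 libraries. Each table also holds a mean signal, which the authors computed as the mean over libraries of counts divided by size factors, and from which the size factors were recovered. The log2 fold change of each gene and its standard error, the score (Wald statistic), and the p-value and adjusted p-value were deposited as the authors computed them, and these columns were used only to read the limits of the tables. The 4 enrichment tables were not used.

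Counts of 4567 listed genes were fitted with edgeR 4.0.16 in R 4.3.3 (quasi-likelihood test, recovered size factors as offsets, Benjamini-Hochberg adjustment over all listed genes, threshold 0.05), with the libraries of the groups compared. The interaction used 12 libraries. Alternatives were TMM scaling over the listed genes alone, DESeq2 1.42.0, a mean of at least 10 normalized counts, all 15 libraries in 1 fit, the replicate number as a block, and leaving out each library. The fit was tested on data simulated from the CD8 Flica-negative libraries, for CD8 Flica-negative against control cells and for the interaction. Of genes changed 4-fold it called 100 of 199 and 80 of 200, with 13 and 10 unchanged genes called. The share of unchanged genes among the calls was thus above the threshold of 0.05 in both. At a mean of at least 50 the fit called 76 of 79 and 61 of 75. Far fewer genes were changed in the simulation than were called in the data, 3037 of 4556 for CD8 Flica-negative against control cells. Comparisons with Flica-positive cells were not simulated.

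The labels call the libraries biological replicates, and replicate pairs differed by more than sampling noise. Total depth per library is unknown, since the tables hold only listed genes. Positions and exon lengths are from GENCODE M21, which lacks 196 of the listed identifiers. The 7 genes are all named. The naming rule allowed the largest called rise and fall of each list in a comparison, of which some are named, and Ccr7, Il7r, Lrp6, Foxo1 and the other list genes in the text were chosen after their values were seen. Single values of 2 list genes are not reported here. The members and lists were chosen with earlier results of these data known.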

Additional observations from a re-analysis of the deposited data

Results flagged for a closer look

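The response of 5 genes differed between CD4 and CD8 Flica-negative cells by the interaction term, as the CD4 minus the CD8 log2 fold change against control. It was 1.97 for Tcf7, 1.90 for Igfbp4, 1.70 for Dapl1, 1.61 for Bach2 and 0.70 for Satb1, each smaller falls in CD4 cells. With 3 libraries a group, no library was tested as an outlier.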

How the results depend on the processing

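Of 1250 alternative values for single genes, 1166 kept their direction and side of the threshold, 56 lost a call, 22 gained one and 6 turned direction. Each alternative kept all 7 genes called lower in both CD8 comparisons with control. Between CD4 and CD8 control cells the count of the 7 called went from 3 to 1 with all 15 libraries in 1 fit and to 6 with the replicate block, and in the interaction from 5 to 3 with TMM scaling. The cause was not tested. With each library left out in turn, the counts were 7 to 7 in both CD8 comparisons with control, 6 to 7 in CD4 against control, 3 to 6 in Flica-positive against Flica-negative, 2 to 4 in CD4 against CD8 control, 5 to 5 in CD4 against CD8 Flica-negative cells and 4 to 5 in the interaction.

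The log2 fold change of Dapl1 between Flica-positive and Flica-negative cells turned to -0.12 with TMM scaling and -0.42 with the replicate block and, leaving out each library in turn, ranged from -0.43 without CD8 Flica-positive replicate 3 to 1.14 without CD8 Flica-positive replicate 2. With TMM scaling that of Il7r in CD4 cells turned to -0.034 and that of Ly6c1 in Flica-positive cells against control to -0.23, and that of Ccr9 in CD4 cells ranged from -0.46 without CD4 control replicate 1 to 0.21 without CD4 control replicate 3. Calls over all listed genes went from 3231 to 2106 with the replicate block in Flica-positive against control cells, from 1068 to 705 without CD8 Flica-negative replicate 2 in Flica-positive against Flica-negative cells, from 1017 to 640 with all 15 libraries in 1 fit in CD4 against CD8 Flica-negative cells, and from 468 to 287 with TMM scaling in the interaction. In Flica-positive against Flica-negative cells, all 15 libraries in 1 fit gave 916 higher and 263 lower.

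Same-numbered libraries deviated together only weakly. Over 3821 genes r was 0.128, 0.0392 and 0.0771 for Flica-positive and Flica-negative cells. It was 0.0960, 0.0282 and 0.113 for CD4 and CD8 Flica-negative cells, 0.0963, 0.0267 and 0.0598 for the controls and -0.0690 to 0.00387 otherwise. Differently numbered libraries gave -0.113 to 0.0429, -0.0911 to -0.00404 and -0.0663 to -0.00988 in the first 3 of these comparisons. There the block raised the calls over all listed genes, from 1068 to 1167, 1017 to 1290 and 554 to 686. Against control it lowered them, from 3037 to 2432 in CD8 Flica-negative, 2638 to 2203 in CD4 Flica-negative and 3231 to 2106 in Flica-positive cells. Pairing was not tested and no source states what the number marks, so the block stayed an alternative. The replicate block added calls for Tcf7, Axin2 and Satb1 between the controls, for Lef1 between CD4 and CD8 Flica-negative cells and for Igfbp4 between Flica-positive and Flica-negative cells. It lost those of Sfrp2 in CD8 Flica-negative cells (adjusted p = 0.0548), of Dkk3 (0.0876) and Igf1 (0.216) in CD4 cells and of Dkk3 (0.117), Tle2 (0.164) and Wnt5b (0.0557) in Flica-positive cells against control, by edgeR. Genes with few counts, such as Dapl1 on day 7, and genes outside the tables limit what could be compared.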
